A study of Rattus norvegicus with 15 samples.

Results

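Cholesterol and fatty acid synthesis under the sterol regulatory element-binding proteins (SREBPs) was followed as 31 listed genes, found by matching the Entrez gene identifiers of the count table to their symbols. Of the 31, 29 had a row in the table, and all 29 passed the filter on low counts. Mvk and Fasn were not analysed here. The whole table held 16832 identifiers, of which 10575 entered the tests. The 29 members were 6 enzymes of the mevalonate steps, 11 enzymes that make squalene and carry it to cholesterol, 5 regulators, 3 sterol transport proteins and 4 enzymes of fatty acid synthesis.

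RNA was sequenced from Odora cells, an immortalised rat olfactory line that the labels describe as undifferentiated, with 3 libraries in each of 5 groups. Cells given 100 µM zinc gluconate, a zinc salt, during 6, 12 or 24 h, or a 200 µM dose during 6 h, were set against untreated controls. All groups are the same line. The labels do not tell separate cultures from repeat libraries of one culture, so each p-value rests on library-to-library spread that may be technical. The design asks how expression changed with time at 100 µM and with dose at 6 h.

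SREBPs are transcription factors held in the endoplasmic reticulum by Scap, their escort protein, and by the Insig proteins, which anchor Scap when sterols are abundant. When sterols run low, Scap carries the SREBPs to the Golgi, where they are cut so that the active part enters the nucleus and raises genes of sterol and fatty acid synthesis. Srebf2 encodes the form best known for the cholesterol genes, and Srebf1 encodes forms that also drive fatty acid synthesis.

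Totals ran from 10.3 to 35.2 M (mega) counts per library, so that 3 counts, the floor used here, correspond to 0.0853 to 0.29 CPM (counts per mega-count of library). Mt1, a metallothionein that zinc induces, stood at 36.83 to 49.24 CPM in the controls, 1340 to 1479 CPM at 6 h, 1254 to 1696 CPM at 12 h, 512.4 to 687.8 CPM under the 24 h label and 526.4 to 684.6 CPM under the 200 µM label. Of 14 markers of the olfactory neuron lineage, 6 or 7 exceeded 1 CPM in each group and 4 or 5 were at 0, and their summed level was 133 to 190 CPM. The CPM of these and the other marker genes are scaled by library totals, and those of the members and all other genes by TMM (trimmed mean of M-values) as well. Omp, the marker of mature olfactory neurons, stayed at or under 0.602 CPM in every library. Sums of hepatocyte markers (0.292 to 1.84 CPM), adipocyte markers (0.0851 to 0.341 CPM) and markers of myelinating glia (4.24 to 8.79 CPM) were low throughout.

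Libraries stood apart in 2 ways that touch the results. Each library labelled 24 h had a near copy among those labelled 200 µM. The chi-square per degree of freedom over genes was 1.35 to 1.41 in these 3 pairs, against at least 3.23 in every other pairing of the 2 labels and at least 3.4 between libraries within a group. The members differed by a median of 0.0351 to 0.0488 on the log2 scale within the 3 pairs, and by at most 0.294, in Insig2. Between the libraries labelled 24 h and those labelled 200 µM, edgeR, DESeq2 and limma-voom each called 0 of 10575 genes, or 0% (69 genes and 0 members had an edgeR unadjusted p under 0.05). The libraries under both labels are therefore called by their labels throughout, and results for 1 label are not support for the other. Heart muscle transcripts (6 of the 8 heart markers listed) summed to 30 to 119 CPM in the 3 controls and in the first 6 h library, and to 0.134 to 0.519 CPM in the other 11 libraries. All 8 markers together summed to 39 to 131 CPM in controls, 5.13 to 66.6 CPM at 6 h, 4.78 to 5.11 CPM at 12 h, 4.45 to 5.19 CPM under the 24 h label and 3.94 to 4.38 CPM under the 200 µM label. Their part in the differences from control was not tested beyond a fit with a term for these libraries, and since all controls carried them, that term rests on the first 6 h library.

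Most members were higher in the libraries labelled 24 h than in controls. Of the 29 members, 19 rose and 5 fell (edgeR's quasi-likelihood test over all 15 libraries, Benjamini-Hochberg adjusted p under 0.05), where 29.7% of all genes tested rose, 31.3% fell and 61% were called in either direction. The median log2 ratio was 0.64 over the members, beside -0.02 over all genes tested. The same 19 and 5 were counted under the 200 µM label, where the background was 29.4% higher, 31.1% lower and 60.5% called, and the members' median was 0.60. In bulk RNA, fewer cells of a type and less RNA per cell cannot be told apart.

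These counts depend on how libraries are scaled. Scaling by library totals in place of TMM moved the median of all genes by -0.38 under the 24 h label and by -0.37 under the 200 µM label, and the share of all called genes that were higher went with it, at 16.2% and 16% instead of 48.7% and 48.5%. With library totals, 17 members were higher and 8 lower under either label. Every change given here is relative to the TMM scale.

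At the 2 earlier times fewer members were called. At 6 h, 7 members rose and 1 fell, where 9.1% of all genes rose, 8.1% fell and 17.2% were called. At 12 h, 12 rose and 2 fell, where 3.36% of all genes rose, 2.97% fell and 6.33% were called. Median log2 ratios of the members were 0.15 at 6 h and 0.28 at 12 h, and that of all genes was 0 at both. Both counts rest on single libraries and on the controls. At 6 h, 8 members were called in all, against 4 without control 1, 13 without control 3, 5 without the third 6 h library and 4 with a term for heart transcripts. At 12 h, 14 were called in all, against 4 without control 1, 4 without the first 12 h library, 5 without the third and 0 with the heart term (edgeR, where 7 members had an unadjusted p under 0.05). With the heart term, log2 ratios at 12 h moved both ways. They went from 0.31 to 0.17 in Fdft1 and from 0.33 to 0.52 in Cyp51, and stayed at 0.88 in Hsd17b7. Their standard errors widened, from 0.09 to 0.16, from 0.08 to 0.13 and from 0.14 to 0.23 in the same order. DESeq2 called 11 members at 6 h and 21 at 12 h. With library totals, 42.1% of the genes called at 6 h were higher in place of 52.9%, and 34% at 12 h in place of 53.1%.

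The controls themselves differed. Control 1 was the lowest control for 23 of 29 members and for 15 of the 17 sterol enzymes, and control 3 was the highest for 14 of the 17. The same count was not made over all genes, so this order cannot be called particular to the members. Summed over the 17 sterol enzymes, the level was 1712, 1921 and 2182 CPM in controls, 2176, 2169 and 2313 CPM at 6 h, 2568, 2357 and 2532 CPM at 12 h, 4839, 4787 and 4640 CPM under the 24 h label, and 4775, 4731 and 4736 CPM under the 200 µM label. The 6 h sums overlapped those of the controls, the 12 h sums lay just above them, and both labels stood clear of all 9 other libraries. The 4 fatty acid enzymes summed to 621, 673 and 717 CPM in controls, 722, 726 and 734 CPM at 6 h, 801, 738 and 799 CPM at 12 h, 748, 756 and 784 CPM under the 24 h label, and 758, 754 and 740 CPM under the 200 µM label.

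**Figure D1:**
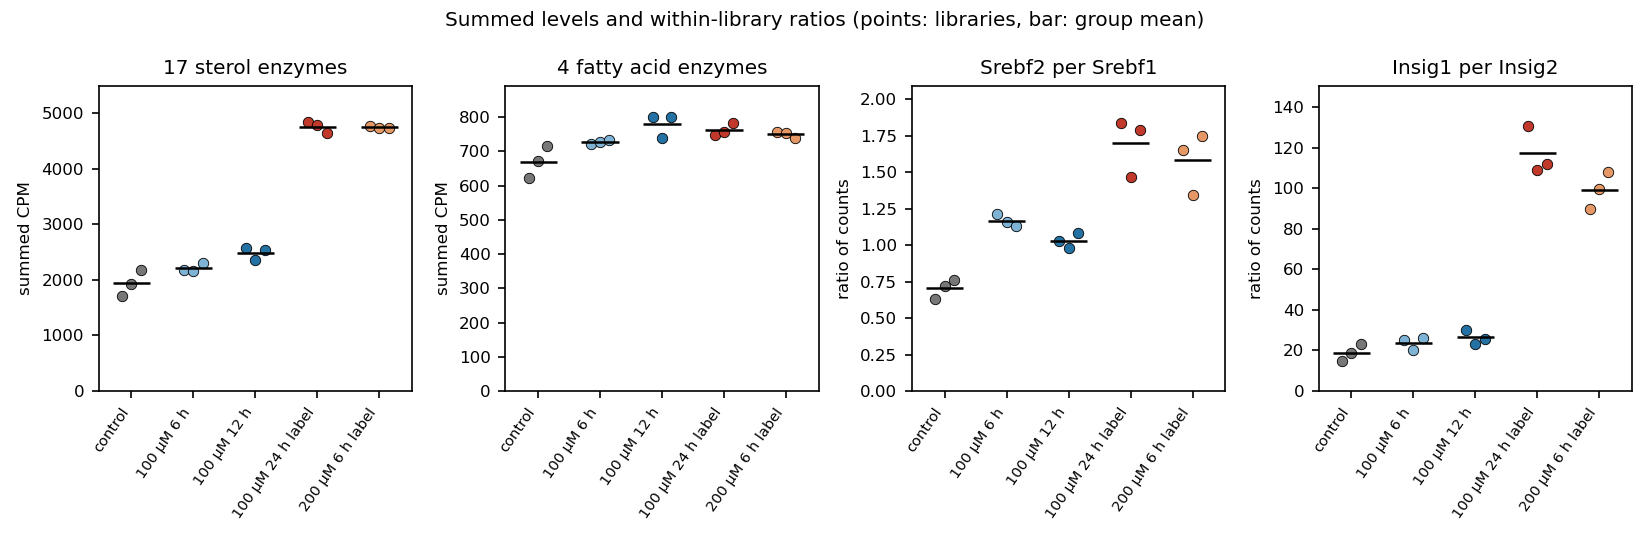
Summed CPM of the 17 sterol enzymes and of the 4 fatty acid enzymes, and the within-library count ratios of Srebf2 to Srebf1 and of Insig1 to Insig2 (y axes), for the 15 libraries by group (x axis); points are libraries and bars are group means. The sterol sum stands at 4640 to 4839 CPM under the 24 h label, above all 3 controls at 1712 to 2182 CPM, while the fatty acid sum spans 748 to 784 CPM under that label and 621 to 717 CPM in controls.

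In 17 of 29 members, 12 of them sterol enzymes, all 6 libraries under the 24 h and 200 µM labels lay above all 9 others, as 19.7% of all genes tested did. In 3 members, Scap, Insig2 and Abca1, all 6 lay below, as 20.4% of all genes did. The other 9 overlapped. The 24 h label against 12 h compares 6 libraries whose heart transcripts summed to at most 0.519 CPM. In that comparison 16 members rose and 7 fell, where 26.9% of all genes rose, 27.6% fell and 54.5% were called. With library totals the split was 9 higher and 12 lower, and 16.2% of all called genes were higher in place of 49.4%. On that scale Fdps, Fdft1, Lss, Srebf2 and Stard4, called higher with TMM, had log2 ratios of 0.03 to 0.20 that were not called, and those of Ebp and Nsdhl were -0.04 and -0.03.

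**Figure D2:**
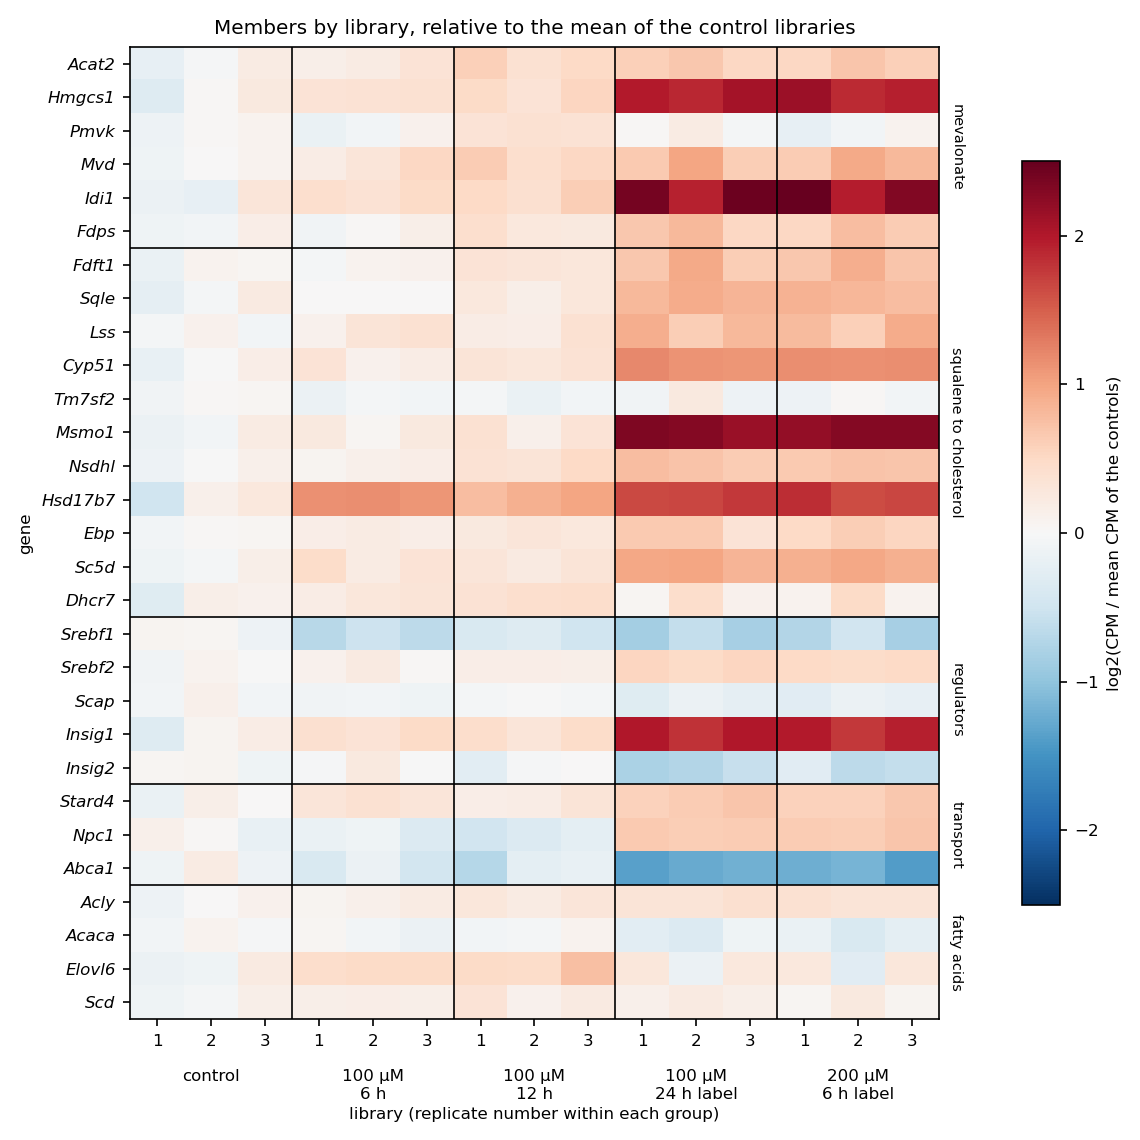
Colour gives log2 of each library's CPM over the mean CPM of the 3 controls for the 29 members (rows, by role) in the 15 libraries (columns, by group). Hmgcs1, Idi1, Msmo1, Hsd17b7 and Insig1 form the darkest red rows under the 24 h and 200 µM labels, and Abca1, Srebf1 and Insig2 are blue there.

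The windows upstream of the annotated start sites are shown for the 4 members with the highest log2 ratios under the 24 h label, Idi1 (2.27), Msmo1 (2.26), Hmgcs1 (1.99) and Insig1 (1.94), and for the member with the lowest, Abca1 (-1.27), because these members stood at both ends of the response and letter patterns tied to SREBP promoters can be looked for there. The 250 bases before each start come from RefSeq on the GRCr8 build, 5′ to 3′ on the gene's strand, and capitals mark CCAAT, the letters that the NF-Y factor recognises, on either strand (ATTGG where it lies on the other strand). The windows lie at chr17:66547525-66547774 (− strand, Idi1), chr16:29746863-29747112 (+ strand, Msmo1), chr2:53382054-53382303 (+ strand, Hmgcs1), chr4:8057770-8058019 (− strand, Insig1) and chr5:72596474-72596723 (− strand, Abca1).
Idi1: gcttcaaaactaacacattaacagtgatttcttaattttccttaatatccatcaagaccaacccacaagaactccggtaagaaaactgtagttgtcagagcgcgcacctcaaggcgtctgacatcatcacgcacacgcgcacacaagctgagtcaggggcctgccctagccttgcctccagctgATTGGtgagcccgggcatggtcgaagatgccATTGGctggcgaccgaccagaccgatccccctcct
Msmo1: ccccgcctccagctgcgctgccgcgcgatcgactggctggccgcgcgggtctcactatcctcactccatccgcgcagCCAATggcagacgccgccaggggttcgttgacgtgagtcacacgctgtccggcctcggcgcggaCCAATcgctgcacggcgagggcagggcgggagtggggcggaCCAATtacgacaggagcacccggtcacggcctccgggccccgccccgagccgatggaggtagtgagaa
Hmgcs1: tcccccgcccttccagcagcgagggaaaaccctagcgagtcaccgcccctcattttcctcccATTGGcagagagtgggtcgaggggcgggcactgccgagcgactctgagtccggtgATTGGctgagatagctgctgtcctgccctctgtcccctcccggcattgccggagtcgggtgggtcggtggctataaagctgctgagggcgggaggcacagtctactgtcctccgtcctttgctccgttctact
Insig1: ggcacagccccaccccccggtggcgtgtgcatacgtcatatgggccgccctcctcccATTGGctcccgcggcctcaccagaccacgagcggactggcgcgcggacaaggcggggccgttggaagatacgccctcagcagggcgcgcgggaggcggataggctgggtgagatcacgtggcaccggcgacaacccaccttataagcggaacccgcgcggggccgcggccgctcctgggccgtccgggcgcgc
Abca1: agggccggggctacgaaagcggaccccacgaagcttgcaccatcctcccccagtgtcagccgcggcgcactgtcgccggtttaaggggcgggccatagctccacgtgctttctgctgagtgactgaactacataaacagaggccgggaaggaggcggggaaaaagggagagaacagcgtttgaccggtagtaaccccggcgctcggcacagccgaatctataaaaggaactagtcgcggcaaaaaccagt

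The Msmo1 window held 3 CCAAT matches, Idi1 and Hmgcs1 held 2 each, Insig1 held 1 and Abca1 held 0. Of the 29 members, 23 had a window. Srebf1 had 2 windows, and the higher count of matches was used for it. Of the 23 members, 16 (69.6%) held at least 1 match and 8 held at least 2. Among all 33469 windows of the table the shares were 34% and 9.42%, and among the 13286 genes of the count table with a window they were 35.8% and 11.4%. Of the 16 members with a window that rose under the 24 h label, 13 held a match, and so did Insig2 and Srebf1, which fell. The 30 matches, pooled over all windows with both of Srebf1, had a median position of 99 bases upstream, and 26 lay between 60 and 200 bases. A sterol regulatory element written as TCACNCCAC, on either strand, was in 0 of the 23 members with a window and in 0.974% of all windows. These exact letters thus do not occur in the members' windows. The GC box GGGCGG was in 19 of the 23 (30.5% of all windows, 47.1% of those of genes in the table), and the E-box CACGTG was in 4 of the 23 (5.59% and 7.07%). No CCAAT match overlapped another of these patterns. A match of letters is not evidence of binding.

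**Figure D3:**
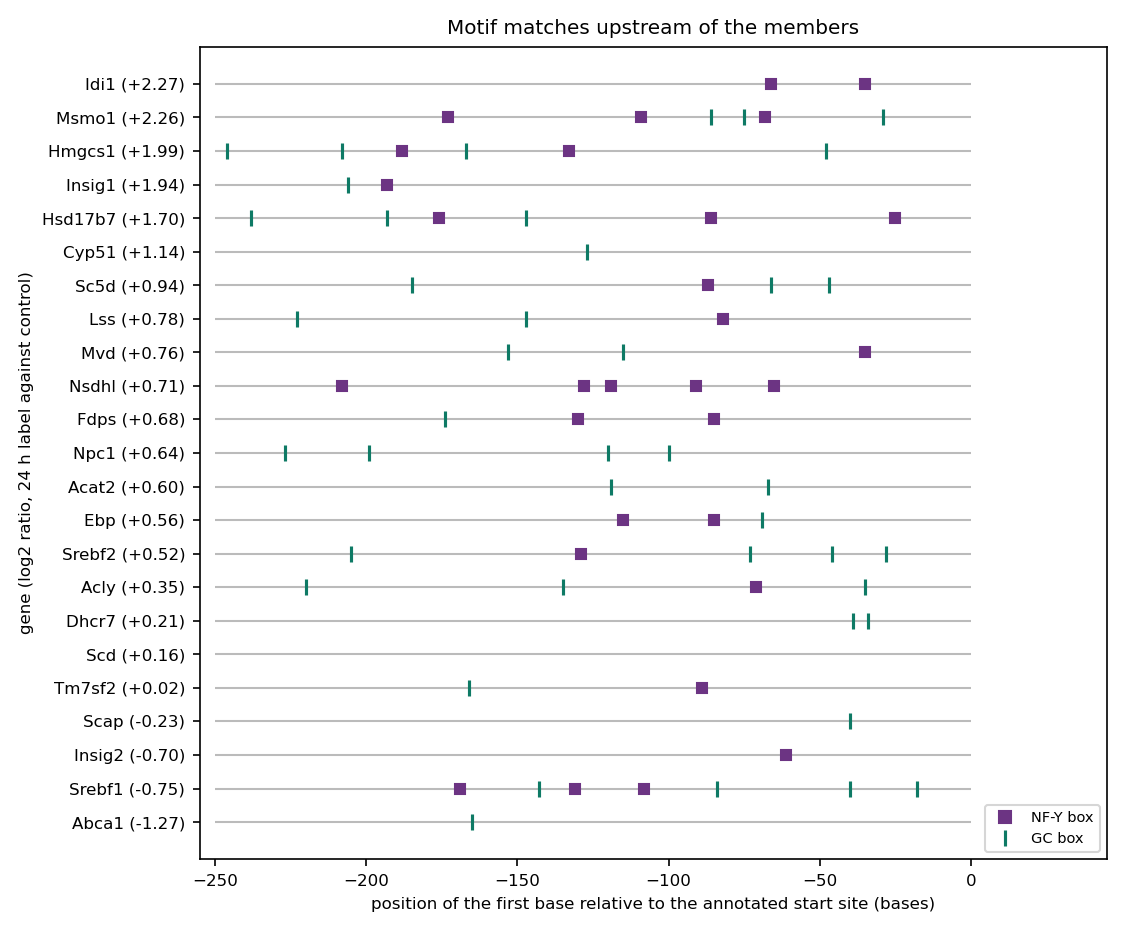
Position of each NF-Y box and GC box match (x axis, bases relative to the annotated start site) in the 250-base windows of the 23 members with a window (rows, ordered by log2 ratio of the 24 h label to control, given in brackets). The NF-Y boxes lie mostly between 60 and 200 bases upstream, in 16 of the 23 members. The Srebf1 row pools its 2 windows.

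The mevalonate steps build the isoprenoid units of cholesterol from acetyl-CoA. Of the 6 enzymes tested, 2 rose at 6 h, 4 at 12 h, and 5 under each of the 24 h and 200 µM labels. The others were not called. In the same order, 9.1%, 3.36%, 29.7% and 29.4% of all genes tested rose. Acat2 (Entrez gene 308100), which joins acetyl-CoA units, had 203, 229 and 270 CPM in controls, 258, 268 and 298 CPM at 6 h and 356, 305 and 330 CPM at 12 h. Acat2 stood at 355, 372 and 337 CPM under the 24 h label and at 334, 377 and 355 CPM under the 200 µM label. It rose at 12 h (log2 ratio 0.50 ± 0.09 SE, edgeR adjusted p = 0.00269) and under the 24 h label (log2 ratio 0.60 ± 0.09 SE, edgeR adjusted p = 1.48e-05), and its 12 h range overlapped that of the 24 h label. The Acat2 12 h call was lost with the heart term (edgeR adjusted p = 0.417).

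Hmgcs1 (Entrez gene 29637), the synthase that makes HMG-CoA, had 229, 292 and 339 CPM in controls, 362, 370 and 374 CPM at 6 h and 397, 365 and 416 CPM at 12 h. Hmgcs1 stood at 1138, 1063 and 1207 CPM under the 24 h label and at 1258, 1047 and 1106 CPM under the 200 µM label. All treated libraries lay above all 3 controls, and both labels stood clear of the rest. Under the 24 h label it rose to a mean of 1140 ± 72.1 CPM, against 287 ± 55.3 CPM in controls (SD, n = 3 each) (log2 ratio 1.99 ± 0.11 SE, edgeR adjusted p = 5.2e-11), and under the 200 µM label by the same log2 ratio (log2 ratio 1.99 ± 0.11 SE, edgeR adjusted p = 5.46e-11). It also rose at 6 h (log2 ratio 0.36 ± 0.11 SE, edgeR adjusted p = 0.0258) and at 12 h (log2 ratio 0.45 ± 0.11 SE, edgeR adjusted p = 0.0168). The Hmgcs1 6 h call was lost without control 1 or any 6 h library (edgeR adjusted p = 0.0612 to 0.128) and with the heart term (adjusted p = 0.195). The Hmgcs1 12 h call was lost without control 1 or the first or the third 12 h library (edgeR adjusted p = 0.0712 to 0.0757), in a fit of the 6 libraries compared (adjusted p = 0.0711) and with the heart term (adjusted p = 0.452).

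Pmvk (Entrez gene 310645), the kinase that adds the second phosphate to mevalonate, had 28.6, 32.1 and 33.1 CPM in controls, 27.9, 29.7 and 33.9 CPM at 6 h and 39.5, 40.7 and 40.3 CPM at 12 h. Pmvk stood at 31.7, 35.9 and 30.4 CPM under the 24 h label and at 27.2, 30 and 33.2 CPM under the 200 µM label. Its high values were those at 12 h (log2 ratio 0.36 ± 0.09 SE, edgeR adjusted p = 0.0224), and the other groups overlapped. The Pmvk 12 h call was lost without control 1 or any 12 h library (edgeR adjusted p = 0.0655 to 0.122) and with the heart term (adjusted p = 0.751). Under the 24 h label its log2 ratio to control was 0.06 (95% interval -0.13 to 0.25, edgeR adjusted p = 0.557). With library totals it was called lower there (log2 ratio -0.31, edgeR adjusted p = 0.00372). Pmvk alone among the members was called between 12 h and 6 h (log2 ratio 0.41 ± 0.09 SE, edgeR adjusted p = 0.0415), where 0.974% of all genes were called. The Pmvk call against 6 h was lost without any 12 h library or the first or the second 6 h library (edgeR adjusted p = 0.109 to 0.325) and with the heart term (adjusted p = 0.321).

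Mvd (Entrez gene 81726), the decarboxylase that forms isopentenyl diphosphate, had 39, 42.5 and 44.9 CPM in controls, 48.2, 51.8 and 60.1 CPM at 6 h and 65.8, 56.7 and 60.6 CPM at 12 h. Mvd stood at 66, 83.3 and 64.3 CPM under the 24 h label and at 65.6, 81.1 and 74.3 CPM under the 200 µM label. It was called in all 4 comparisons with control, at 6 h (log2 ratio 0.33 ± 0.11 SE, edgeR adjusted p = 0.0383), at 12 h (log2 ratio 0.53 ± 0.11 SE, edgeR adjusted p = 0.00535), under the 24 h label (log2 ratio 0.76 ± 0.11 SE, edgeR adjusted p = 6.24e-06) and under the 200 µM label (log2 ratio 0.81 ± 0.11 SE, edgeR adjusted p = 3.32e-06). The second library of each label was the highest, and these libraries form a near-copy pair (chi-square per degree of freedom 1.35). The Mvd 6 h call was lost without control 1, control 2 or the second or the third 6 h library (edgeR adjusted p = 0.0654 to 0.186) and with the heart term (adjusted p = 0.444). The Mvd 12 h call was lost with the heart term (edgeR adjusted p = 0.566).

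Idi1 (Entrez gene 89784), the isomerase that readies the isoprenoid units for joining, had 37.7, 36.5 and 51.7 CPM in controls, 55.9, 54.1 and 58.8 CPM at 6 h and 59, 55.6 and 64.6 CPM at 12 h. Idi1 stood at 221, 160 and 228 CPM under the 24 h label and at 242, 163 and 209 CPM under the 200 µM label. It had the highest log2 ratio of the members under both labels (log2 ratio 2.27 ± 0.16 SE, edgeR adjusted p = 4.37e-09 under the 24 h label, and log2 ratio 2.28 ± 0.16 SE, edgeR adjusted p = 4.41e-09 under the 200 µM label). At 6 h and 12 h every treated library lay above every control, but the test was not passed (edgeR adjusted p = 0.0816 and 0.0727). The libraries under the 2 labels ran from 160 to 242 CPM, with the second library lowest in each. These second libraries form a near-copy pair, so they are not separate support.

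Fdps (Entrez gene 83791), which makes farnesyl diphosphate, had 311, 319 and 377 CPM in controls, 314, 343 and 372 CPM at 6 h and 447, 402 and 395 CPM at 12 h. Fdps stood at 539, 592 and 479 CPM under the 24 h label and at 480, 575 and 523 CPM under the 200 µM label. The 6 h libraries overlapped the controls, the 12 h libraries lay above them without a call, and it rose under the 24 h label (log2 ratio 0.68 ± 0.09 SE, edgeR adjusted p = 5.33e-06). It was called in every alternative run for that comparison.

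From farnesyl diphosphate, squalene is made, closed into lanosterol and trimmed to cholesterol. Of these 11 enzymes, 2 rose at 6 h, 5 at 12 h, and 9 under each of the 24 h and 200 µM labels. The others were not called. In the same order, 9.1%, 3.36%, 29.7% and 29.4% of all genes tested rose. Median log2 ratios of the 11 enzymes were 0.18, 0.28, 0.78 and 0.77. Fdft1 (Entrez gene 29580), squalene synthase, had 101, 121 and 118 CPM in controls, 110, 121 and 122 CPM at 6 h and 144, 140 and 137 CPM at 12 h. Fdft1 stood at 182, 219 and 173 CPM under the 24 h label and at 182, 214 and 184 CPM under the 200 µM label. It rose at 12 h with an adjusted p near the threshold (log2 ratio 0.31 ± 0.09 SE, edgeR adjusted p = 0.049) and under the 24 h label (log2 ratio 0.76 ± 0.09 SE, edgeR adjusted p = 7.9e-07). The Fdft1 12 h call was lost without control 1, control 3 or any 12 h library (edgeR adjusted p = 0.0643 to 0.234), with a minimum of 50 counts in 3 libraries (adjusted p = 0.0502), with the heart term (adjusted p = 0.76) and with library totals (adjusted p = 0.0761, log2 ratio 0.27).

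Sqle (Entrez gene 29230), squalene epoxidase, a rate-controlling step, had 97.4, 110 and 133 CPM in controls, 115, 114 and 114 CPM at 6 h and 136, 125 and 139 CPM at 12 h. Sqle stood at 198, 215 and 205 CPM under the 24 h label and at 207, 202 and 194 CPM under the 200 µM label. The 6 h libraries stood at 114 to 115 CPM, inside the control range, and those at 12 h overlapped the controls too. It rose under the 24 h label (log2 ratio 0.86 ± 0.08 SE, edgeR adjusted p = 5.84e-08). Lss (Entrez gene 81681), which closes the ring to lanosterol, had 68.6, 76 and 67.8 CPM in controls, 76.4, 88.1 and 91.6 CPM at 6 h and 80.1, 79.4 and 92.3 CPM at 12 h. Lss stood at 132, 108 and 124 CPM under the 24 h label and at 122, 107 and 134 CPM under the 200 µM label. Its treated libraries all lay above the controls, and it was called under the 24 h label (log2 ratio 0.78 ± 0.09 SE, edgeR adjusted p = 1.06e-06) and not at 6 or 12 h.

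Cyp51 (Entrez gene 25427), the lanosterol demethylase, had 216, 244 and 273 CPM in controls, 308, 262 and 279 CPM at 6 h and 307, 297 and 316 CPM at 12 h. Cyp51 stood at 560, 534 and 525 CPM under the 24 h label and at 550, 537 and 550 CPM under the 200 µM label. It rose at 12 h (log2 ratio 0.33 ± 0.08 SE, edgeR adjusted p = 0.0138) and was 2.21-fold higher under the 24 h label (log2 ratio 1.14 ± 0.08 SE, edgeR adjusted p = 3.02e-10). The 6 libraries under both labels spanned 525 to 560 CPM. The Cyp51 12 h call was lost without control 1 or the first or the third 12 h library (edgeR adjusted p = 0.0593 to 0.0895) and with the heart term (adjusted p = 0.0919).

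Demethylation of lanosterol goes on through Msmo1, Nsdhl and Hsd17b7, which act in turn. Msmo1 (Entrez gene 140910), the methylsterol monooxygenase, had 197, 207 and 251 CPM in controls, 257, 225 and 259 CPM at 6 h and 283, 237 and 275 CPM at 12 h. Msmo1 stood at 1098, 1066 and 968 CPM under the 24 h label and at 1002, 1067 and 1066 CPM under the 200 µM label. It rose to a mean of 1040 ± 67.7 CPM under the 24 h label, against 218 ± 28.9 CPM in controls (SD, n = 3 each) (log2 ratio 2.26 ± 0.09 SE, edgeR adjusted p = 2.83e-13). The 6 h and 12 h libraries overlapped the controls, so that the difference lay between 12 h and the 24 h label, with a log2 ratio of 1.98 ± 0.09 SE (edgeR adjusted p = 2.17e-12).

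Nsdhl (Entrez gene 309262), the sterol dehydrogenase of this complex, had 39.7, 43 and 47.7 CPM in controls, 45.3, 47.7 and 48.5 CPM at 6 h and 56.1, 54.5 and 61.7 CPM at 12 h. Nsdhl stood at 74.3, 71.1 and 67.5 CPM under the 24 h label and at 68.8, 70.8 and 70.6 CPM under the 200 µM label. Its rise was called at 12 h (log2 ratio 0.40 ± 0.07 SE, edgeR adjusted p = 0.00252) and under the 24 h label (log2 ratio 0.71 ± 0.07 SE, edgeR adjusted p = 9.86e-08). The Nsdhl 12 h call was lost with the heart term (edgeR adjusted p = 0.379). Hsd17b7 (Entrez gene 29540), the reductase that ends the demethylation, had 6.63, 10.2 and 11.2 CPM in controls, 20.5, 21 and 20.1 CPM at 6 h and 16, 17.3 and 18.4 CPM at 12 h. Hsd17b7 stood at 29.2, 29.9 and 32 CPM under the 24 h label and at 33.7, 28.9 and 29.9 CPM under the 200 µM label. At 6 h it was already 2.19-fold higher than in controls (log2 ratio 1.13 ± 0.13 SE, edgeR adjusted p = 7.33e-06), where the other sterol enzymes had log2 ratios of at most 0.42. It was also higher at 12 h (log2 ratio 0.88 ± 0.14 SE, edgeR adjusted p = 0.000685) and under the 24 h label (log2 ratio 1.70 ± 0.13 SE, edgeR adjusted p = 1.62e-09). The 6 h call held in every alternative run. The Hsd17b7 12 h call was lost with the heart term (edgeR adjusted p = 0.131, log2 ratio 0.88 ± 0.23 SE).

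Ebp (Entrez gene 117278), the sterol isomerase, had 24.9, 26.6 and 27.1 CPM in controls, 29.5, 30 and 29.5 CPM at 6 h and 30.9, 32.5 and 31.4 CPM at 12 h. Ebp stood at 41.3, 41 and 33.3 CPM under the 24 h label and at 37.2, 40.1 and 38.2 CPM under the 200 µM label. Every treated library lay above every control, and it was called under the 24 h label (log2 ratio 0.56 ± 0.08 SE, edgeR adjusted p = 5.85e-06). Sc5d (Entrez gene 114100), the sterol desaturase, had 42.8, 44.4 and 50.8 CPM in controls, 63, 53.3 and 58 CPM at 6 h and 56.7, 53.6 and 57.8 CPM at 12 h. Sc5d stood at 90.4, 91.2 and 82.7 CPM under the 24 h label and at 85.5, 89.5 and 85.3 CPM under the 200 µM label. It rose at 6 h (log2 ratio 0.34 ± 0.08 SE, edgeR adjusted p = 0.0039), at 12 h (log2 ratio 0.28 ± 0.08 SE, edgeR adjusted p = 0.0328) and under the 24 h label (log2 ratio 0.94 ± 0.08 SE, edgeR adjusted p = 3.84e-09), and the 6 h call held in every alternative run. The Sc5d 12 h call was lost without control 1, control 2 or any 12 h library (edgeR adjusted p = 0.0514 to 0.163), with the heart term (adjusted p = 0.149) and with library totals (adjusted p = 0.0563, log2 ratio 0.24).

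On the TMM scale, Tm7sf2 and Dhcr7 were not called in any comparison with control. With library totals, Tm7sf2 was called lower under the 24 h label (log2 ratio -0.35, edgeR adjusted p = 0.00112). Tm7sf2, a sterol reductase, spanned 27.9 to 36.9 CPM over all 15 libraries. Its log2 ratio under the 24 h label was 0.02 with TMM (95% interval -0.16 to 0.21, edgeR adjusted p = 0.831). Dhcr7, the reductase of the last step, spanned 40.8 to 70 CPM, with control 1 lowest, and its ratio was 0.21 (95% interval -0.05 to 0.48, edgeR adjusted p = 0.153). With Pmvk, these were the 3 of 17 sterol enzymes that were not called under the 24 h label on the TMM scale.

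**Figure D4:**
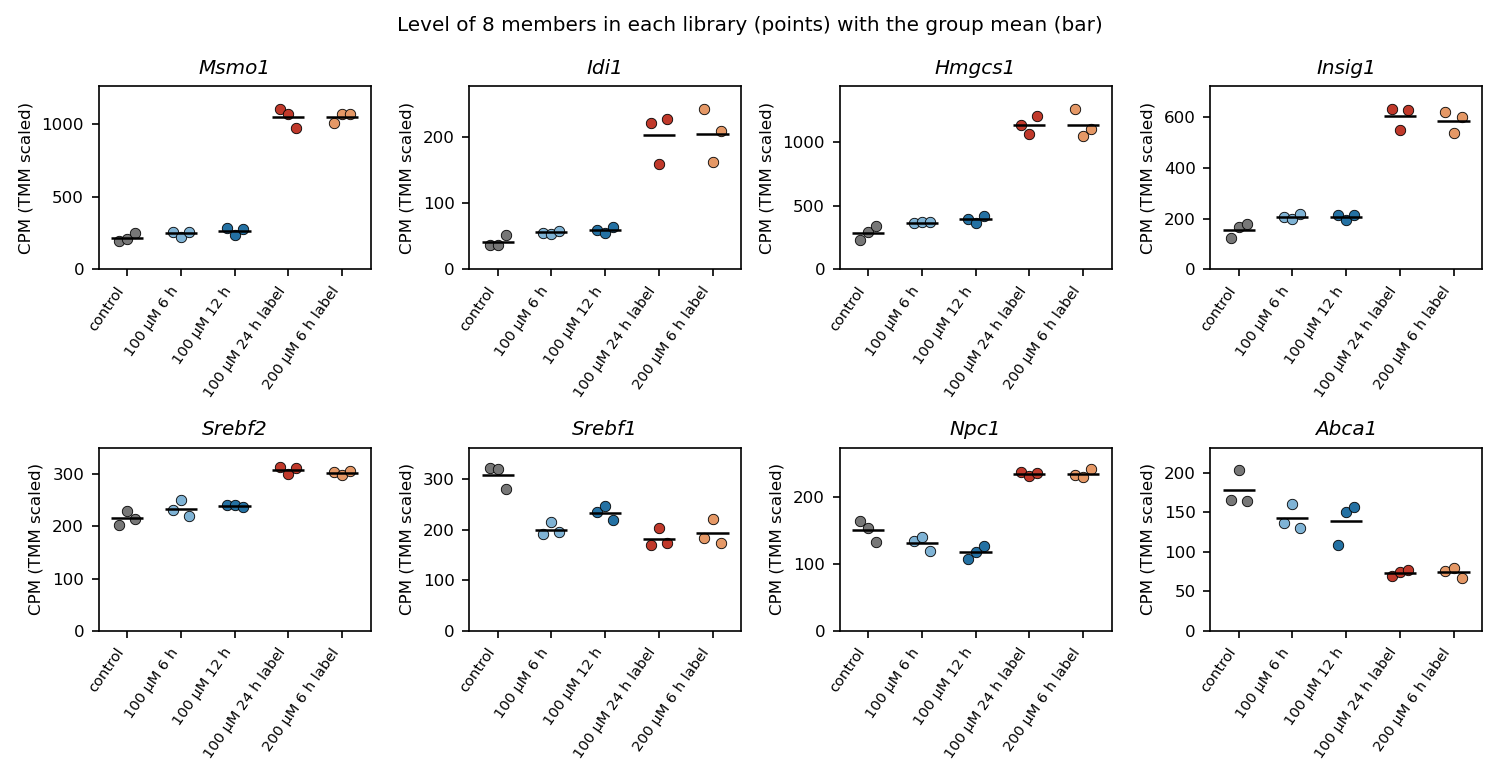
CPM (y axis, from 0) of Msmo1, Idi1, Hmgcs1, Insig1, Srebf2, Srebf1, Npc1 and Abca1 in the 15 libraries by group (x axis); points are libraries and bars are group means. Msmo1 stands at 968 to 1098 CPM under the 24 h label and 197 to 251 CPM in controls, and Abca1 at 69.3 to 77.2 CPM under the 24 h label and 164 to 204 CPM in controls.

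The 5 regulators did not move in one direction. Srebf2 (Entrez gene 300095) had 203, 230 and 213 CPM in controls, 231, 251 and 219 CPM at 6 h and 241, 240 and 237 CPM at 12 h. Srebf2 stood at 313, 299 and 312 CPM under the 24 h label and at 303, 298 and 305 CPM under the 200 µM label. It rose under the 24 h label (log2 ratio 0.52 ± 0.06 SE, edgeR adjusted p = 7.12e-07) and the 200 µM label (log2 ratio 0.49 ± 0.06 SE, edgeR adjusted p = 1.59e-06). The Srebf2 call under the 24 h label was lost with library totals (edgeR adjusted p = 0.05, log2 ratio 0.14). The Srebf2 call under the 200 µM label was lost with library totals (edgeR adjusted p = 0.117, log2 ratio 0.11).

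Srebf1 (Entrez gene 78968) had 322, 320 and 280 CPM in controls, 191, 215 and 195 CPM at 6 h and 235, 246 and 219 CPM at 12 h. Srebf1 stood at 170, 204 and 174 CPM under the 24 h label and at 184, 222 and 174 CPM under the 200 µM label. All 12 treated libraries lay below all 3 controls. It fell at 6 h (log2 ratio -0.62 ± 0.09 SE, edgeR adjusted p = 0.000121), at 12 h (log2 ratio -0.39 ± 0.09 SE, edgeR adjusted p = 0.0135), under the 24 h label (log2 ratio -0.75 ± 0.09 SE, edgeR adjusted p = 1.14e-06) and under the 200 µM label (log2 ratio -0.67 ± 0.09 SE, edgeR adjusted p = 4.75e-06). The Srebf1 12 h call was lost without control 1 or the first or the third 12 h library (edgeR adjusted p = 0.0565 to 0.0735) and with the heart term (adjusted p = 0.26). Within each library, Srebf2 counts per Srebf1 count were 1.13 to 1.21 at 6 h, 0.977 to 1.08 at 12 h, 1.47 to 1.84 under the 24 h label and 1.34 to 1.75 under the 200 µM label, against 0.631 to 0.762 in controls. This ratio does not depend on scaling. The rows do not separate the Srebf1 transcripts that start at different promoters.

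Scap (Entrez gene 301024), the escort of both SREBPs, had 117, 133 and 117 CPM in controls, 115, 116 and 113 CPM at 6 h and 118, 122 and 118 CPM at 12 h. Scap stood at 98.7, 110 and 105 CPM under the 24 h label and at 101, 111 and 106 CPM under the 200 µM label. It fell under the 24 h label (log2 ratio -0.23 ± 0.06 SE, edgeR adjusted p = 0.00504) and under the 200 µM label (log2 ratio -0.21 ± 0.06 SE, edgeR adjusted p = 0.00941). The Scap call under the 24 h label was lost with the heart term (edgeR adjusted p = 0.164). The Scap call under the 200 µM label was lost without control 2 (edgeR adjusted p = 0.0655) and with the heart term (adjusted p = 0.205).

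Insig1 and Insig2 encode the anchors that hold Scap back, and Insig1 is itself a known SREBP target. Insig1 (Entrez gene 64194) had 126, 166 and 180 CPM in controls, 208, 199 and 220 CPM at 6 h and 214, 195 and 215 CPM at 12 h. Insig1 stood at 633, 552 and 631 CPM under the 24 h label and at 620, 537 and 602 CPM under the 200 µM label. It rose at 6 h (log2 ratio 0.41 ± 0.10 SE, edgeR adjusted p = 0.0102), at 12 h (log2 ratio 0.40 ± 0.10 SE, edgeR adjusted p = 0.025), under the 24 h label (log2 ratio 1.94 ± 0.10 SE, edgeR adjusted p = 2.44e-11) and under the 200 µM label (log2 ratio 1.90 ± 0.10 SE, edgeR adjusted p = 3.51e-11). The Insig1 6 h call was lost with the heart term (edgeR adjusted p = 0.103). The Insig1 12 h call was lost without control 1 or the first or the third 12 h library (edgeR adjusted p = 0.0856 to 0.113), in a fit of the 6 libraries compared (adjusted p = 0.071) and with the heart term (adjusted p = 0.457).

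Insig2 (Entrez gene 288985) had 8.67, 8.81 and 7.83 CPM in controls, 8.25, 9.93 and 8.42 CPM at 6 h and 7.06, 8.32 and 8.44 CPM at 12 h. Insig2 stood at 4.85, 5.08 and 5.63 CPM under the 24 h label and at 6.9, 5.39 and 5.59 CPM under the 200 µM label. It was the lowest member in counts, with 77 to 92 counts per library under the 24 h label and 69 to 83 under the 200 µM label. It fell under the 24 h label (log2 ratio -0.70 ± 0.13 SE, edgeR adjusted p = 9.81e-05) and under the 200 µM label (log2 ratio -0.51 ± 0.13 SE, edgeR adjusted p = 0.00228). Insig1 counts per Insig2 count stood at 109 to 131 under the 24 h label and 89.8 to 108 under the 200 µM label, against 14.6 to 23 in controls.

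Of the 3 transport proteins, Stard4 and Npc1 were higher and Abca1 was lower under both labels. Stard4 (Entrez gene 291699), which carries cholesterol between membranes, had 20, 24.7 and 22.5 CPM in controls, 27.8, 29.2 and 27.6 CPM at 6 h and 25.2, 25.4 and 28.1 CPM at 12 h. Stard4 stood at 33.5, 34.7 and 36.4 CPM under the 24 h label and at 33.3, 33.3 and 35.5 CPM under the 200 µM label. It rose at 6 h (log2 ratio 0.33 ± 0.08 SE, edgeR adjusted p = 0.00852) and under the 24 h label (log2 ratio 0.64 ± 0.08 SE, edgeR adjusted p = 1.5e-06). The Stard4 6 h call was lost without control 1 (edgeR adjusted p = 0.0552) and with the heart term (adjusted p = 0.0895).

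Npc1 (Entrez gene 266732), which moves cholesterol out of lysosomes, had 164, 154 and 133 CPM in controls, 134, 140 and 119 CPM at 6 h and 108, 118 and 127 CPM at 12 h. Npc1 stood at 237, 231 and 235 CPM under the 24 h label and at 232, 230 and 242 CPM under the 200 µM label. It fell at 12 h (log2 ratio -0.35 ± 0.08 SE, edgeR adjusted p = 0.013) and rose under the 24 h label (log2 ratio 0.64 ± 0.08 SE, edgeR adjusted p = 1.16e-06). The log2 ratio of the 24 h label to 12 h was 0.99 ± 0.08 SE (edgeR adjusted p = 5.38e-09). The Npc1 12 h call was lost without control 1 or the first 12 h library (edgeR adjusted p = 0.086 to 0.0896) and with the heart term (adjusted p = 0.452).

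Abca1 (Entrez gene 313210), which exports cholesterol to lipoprotein particles, had 166, 204 and 164 CPM in controls, 137, 161 and 130 CPM at 6 h and 109, 150 and 157 CPM at 12 h. Abca1 stood at 69.3, 74.8 and 77.2 CPM under the 24 h label and at 76.3, 79.7 and 67.5 CPM under the 200 µM label. All 6 libraries under both labels lay between 67.5 and 79.7 CPM, below all others. It fell under the 24 h label (log2 ratio -1.27 ± 0.12 SE, edgeR adjusted p = 1.65e-07) and the 200 µM label (log2 ratio -1.26 ± 0.12 SE, edgeR adjusted p = 2.05e-07), the lowest ratios of the members. At 6 h and 12 h all libraries were below all controls, but neither passed the test (log2 ratio -0.32, edgeR adjusted p = 0.0793 at 6 h, and -0.36, edgeR adjusted p = 0.0918 at 12 h).

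**Figure D5:**
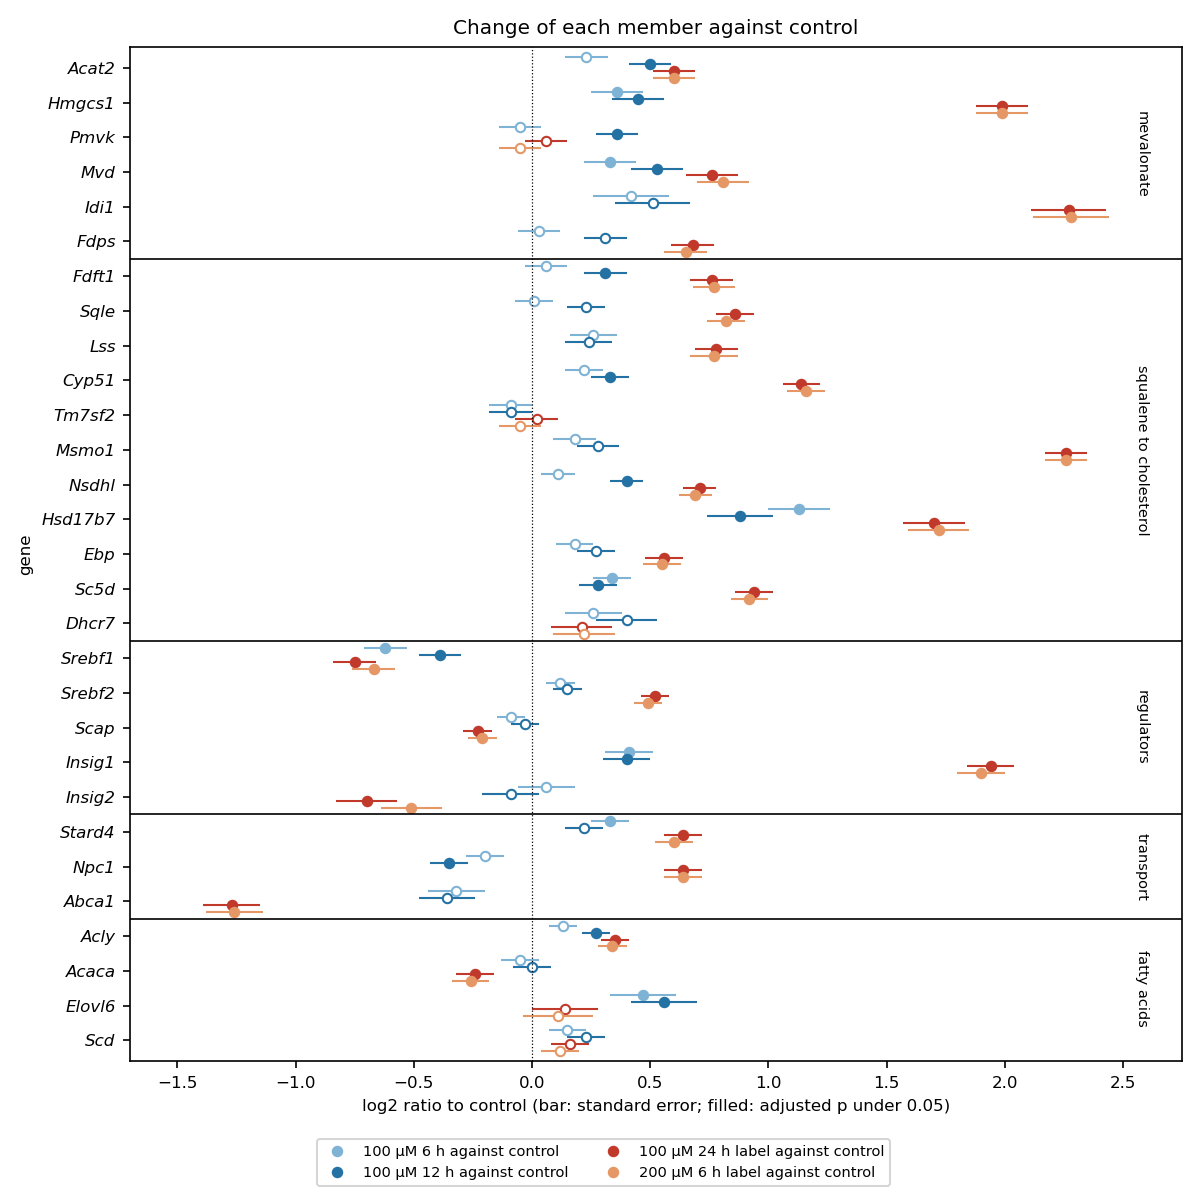
Log2 ratio to control (x axis, with standard error bars) of each of the 29 members (y axis, by role) at 6 h, at 12 h, under the 24 h label and under the 200 µM label; filled points passed an adjusted p of 0.05. Points of the 24 h and 200 µM labels lie together, from -1.27 in Abca1 to 2.28 in Idi1, while those at 6 h and 12 h lie between -0.62 and 1.13.

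The fatty acid enzymes turn citrate into fatty acids and then lengthen and desaturate them. Of the 4 tested, 1 rose at 6 h and 2 rose at 12 h, where 9.1% and 3.36% of all genes rose. Under each label 1 rose and 1 fell. Of all genes, 29.7% rose and 31.3% fell under the 24 h label, and 29.4% and 31.1% under the 200 µM label. Acly (Entrez gene 24159), which splits citrate to acetyl-CoA, had 271, 300 and 317 CPM in controls, 310, 322 and 339 CPM at 6 h and 361, 343 and 364 CPM at 12 h. Acly stood at 369, 368 and 390 CPM under the 24 h label and at 384, 369 and 369 CPM under the 200 µM label. It rose at 12 h (log2 ratio 0.27 ± 0.06 SE, edgeR adjusted p = 0.016) and on the TMM scale under the 24 h label (log2 ratio 0.35 ± 0.06 SE, edgeR adjusted p = 0.00011), where library totals gave a log2 ratio of -0.03. The Acly 12 h call was lost without control 1 or the first or the third 12 h library (edgeR adjusted p = 0.0635 to 0.102) and with the heart term (adjusted p = 0.62). The Acly call under the 24 h label was lost with the heart term (edgeR adjusted p = 0.0875) and with library totals (adjusted p = 0.678, log2 ratio -0.03).

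Acaca (Entrez gene 60581), acetyl-CoA carboxylase, which commits carbon to fatty acids, had 117, 130 and 120 CPM in controls, 127, 116 and 110 CPM at 6 h and 117, 118 and 130 CPM at 12 h. Acaca stood at 102, 96.1 and 113 CPM under the 24 h label and at 109, 93.4 and 103 CPM under the 200 µM label. It fell slightly under the 24 h label (log2 ratio -0.24 ± 0.08 SE, edgeR adjusted p = 0.0146) and the 200 µM label (log2 ratio -0.26 ± 0.08 SE, edgeR adjusted p = 0.00874). The Acaca call under the 24 h label was lost without control 2 or the second 24 h library (edgeR adjusted p = 0.0682 to 0.0705) and with the heart term (adjusted p = 0.739). The Acaca call under the 200 µM label was lost with the heart term (edgeR adjusted p = 0.647). Hmgcs1 counts per Acaca count set a sterol enzyme against a fatty acid enzyme. This ratio was 10.6 to 11.2 under the 24 h label and 10.7 to 11.5 under the 200 µM label, against 1.96 to 2.84 in controls. Acat2, which acts before Hmgcs1, had a log2 ratio to control of 0.60 under the 24 h label, against 1.99 for Hmgcs1.

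Elovl6 (Entrez gene 171402), an elongase of saturated fatty acids, had 15.4, 15.8 and 20.1 CPM in controls, 23.3, 23.9 and 23.9 CPM at 6 h and 23.7, 23.5 and 28.7 CPM at 12 h. Elovl6 stood at 20.9, 15.4 and 20.6 CPM under the 24 h label and at 20.4, 14 and 20.8 CPM under the 200 µM label. It was higher than control at 6 h (log2 ratio 0.47 ± 0.14 SE, edgeR adjusted p = 0.0292) and at 12 h (log2 ratio 0.56 ± 0.14 SE, edgeR adjusted p = 0.025), and lower under the 24 h label than at 12 h (log2 ratio -0.42 ± 0.15 SE, edgeR adjusted p = 0.0224). The Elovl6 6 h call was lost without control 1, control 2 or any 6 h library (edgeR adjusted p = 0.0654 to 0.129), with the heart term (adjusted p = 0.171) and with library totals (adjusted p = 0.0508, log2 ratio 0.44). The Elovl6 12 h call was lost without control 1, control 2 or the first or the third 12 h library (edgeR adjusted p = 0.0596 to 0.127) and with the heart term (adjusted p = 0.466). The Elovl6 call against 12 h was lost without the third 12 h library or the second 24 h library (edgeR adjusted p = 0.11 to 0.111). Under the 24 h label its log2 ratio to control was 0.14 (95% interval -0.16 to 0.45, edgeR adjusted p = 0.409). Scd, a desaturase, spanned 218 to 300 CPM and was not called in any comparison with control on the TMM scale. Its log2 ratio under the 24 h label was 0.16 (95% interval 0.01 to 0.32, edgeR adjusted p = 0.0673). With library totals Scd was called lower under the 24 h label (log2 ratio -0.21, edgeR adjusted p = 0.011) and the 200 µM label (log2 ratio -0.25, edgeR adjusted p = 0.00363). Reads of Scd and of its close relative Scd2 may have been split by the counting, whose rules were not given in the sources used here.

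Dose was compared at 6 h through the libraries labelled 200 µM and those given 100 µM. Of the members, 19 rose and 4 fell, where 26.5% of all genes rose, 27.1% fell and 53.6% were called. All 14 sterol enzymes that rose against control under the 200 µM label are in this count, with Msmo1 at 2.08 ± 0.09 SE (edgeR adjusted p = 1.15e-12) and Idi1 at 1.86 ± 0.16 SE (edgeR adjusted p = 6.46e-08). With library totals the split was 11 higher and 10 lower, and 14.6% of all called genes were higher in place of 49.4%. On that scale 5 of the 14 sterol enzymes were not called, Acat2 (log2 ratio 0.03), Ebp (0.03), Mvd (0.13), Lss (0.16) and Hsd17b7 (0.24), and neither was Srebf2 (0.02). Of the 19 members called higher, Stard4 and Acly had negative log2 ratios with library totals (-0.07 and -0.14). Because the libraries under the 200 µM and 24 h labels resemble each other in pairs, dose at 6 h and time at 100 µM cannot be told apart in these libraries.

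Other genes tied to these pathways were counted from lists drawn up around the members. Of 15 tested genes of further SREBP-linked lipid enzymes, 8 rose and 2 fell under the 24 h label, where 29.7% of all genes rose and 31.3% fell, with a median log2 ratio of 0.17. Against 12 h, 3 rose and 2 fell, where 26.9% of all genes rose and 27.6% fell, with a median of 0.04. Aacs, which activates acetoacetate for lipid synthesis, stood at 194, 212 and 193 CPM under the 200 µM label, against 64.8, 77 and 83.9 CPM in controls (log2 ratio 1.41 ± 0.09 SE, edgeR adjusted p = 1.21e-10). Me1, malic enzyme, a source of NADPH for lipid synthesis, stood at 134, 135 and 135 CPM under the 200 µM label, against 55.8, 53.9 and 62.4 CPM in controls (log2 ratio 1.23 ± 0.06 SE, edgeR adjusted p = 1.04e-11). Mid1ip1, an activator of acetyl-CoA carboxylase, stood at 67.4, 65.8 and 62.8 CPM under the 24 h label, against 122, 113 and 125 CPM in controls (log2 ratio -0.87 ± 0.07 SE, edgeR adjusted p = 1.57e-09).

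Of 11 genes of the machinery that moves, cuts and degrades the SREBP system, 3 were higher and 5 lower under the 24 h label, where 29.7% of all genes were higher and 31.3% lower. Rnf139, a ubiquitin ligase of the endoplasmic reticulum linked to sterol-dependent degradation, stood at 16.6, 14.6 and 17 CPM under the 24 h label, against 49.8, 47.3 and 52.5 CPM in controls (log2 ratio -1.64 ± 0.08 SE, edgeR adjusted p = 2.92e-12). Sec24a, a coat protein of vesicles leaving the endoplasmic reticulum, stood at 95.6, 86.8 and 98.4 CPM under the 200 µM label, against 51.2, 48.1 and 50.4 CPM in controls (log2 ratio 0.91 ± 0.06 SE, edgeR adjusted p = 5.73e-10). Syvn1, another ubiquitin ligase of that organelle, stood at 123, 119 and 114 CPM under the 200 µM label, against 72.1, 72.1 and 67.7 CPM in controls (log2 ratio 0.75 ± 0.07 SE, edgeR adjusted p = 2.46e-08).

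Genes of the liver X receptor, which senses oxysterols and is known to raise Abca1, were tested as a list of 7. Of these, 3 rose under the 24 h label and the other 4 were not called, where 61% of all genes were called, 29.7% higher and 31.3% lower. Abcg1, another sterol exporter, stood at 20, 19.5 and 18.1 CPM under the 200 µM label, against 6.1, 6.59 and 6.2 CPM in controls (log2 ratio 1.60 ± 0.10 SE, edgeR adjusted p = 1.64e-10). Mylip, a ligase that marks lipoprotein receptors for degradation, stood at 89.1, 85.6 and 108 CPM under the 24 h label, against 38.8, 51.8 and 40.1 CPM in controls (log2 ratio 1.11 ± 0.14 SE, edgeR adjusted p = 2.76e-06). Lpcat3, which remodels phospholipids, stood at 223, 239 and 211 CPM under the 24 h label, against 174, 195 and 198 CPM in controls (log2 ratio 0.25 ± 0.07 SE, edgeR adjusted p = 0.00418).

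Among 10 genes of sterol storage and transport, 5 rose and 3 fell under the 24 h label, where 61% of all genes were called, 29.7% higher and 31.3% lower. Soat1, which esterifies cholesterol for storage, stood at 114, 99.3 and 110 CPM under the 200 µM label, against 77.2, 66.8 and 68.4 CPM in controls (log2 ratio 0.61 ± 0.09 SE, edgeR adjusted p = 7.91e-06). Npc2, the lysosomal partner of Npc1, stood at 313, 351 and 303 CPM under the 24 h label, against 214, 227 and 215 CPM in controls (log2 ratio 0.56 ± 0.07 SE, edgeR adjusted p = 2.62e-06). Osbpl5, an oxysterol-binding protein relative, stood at 109, 91.5 and 107 CPM under the 24 h label, against 64.5, 72.6 and 68.2 CPM in controls (log2 ratio 0.58 ± 0.08 SE, edgeR adjusted p = 2.58e-06).

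Of 10 genes of fatty acid oxidation, 1 was higher and 7 were lower under the 24 h label, where 29.7% of all genes were higher and 31.3% lower, with a median log2 ratio of -0.50. The controls of that comparison carried the heart transcripts given above (30 to 119 CPM), whose part in it was not tested. Against 12 h, where neither group carried them at over 0.519 CPM, 1 was higher and 4 were lower, where 26.9% of all genes were higher and 27.6% lower, with a median of -0.11. Cpt2, which receives fatty acids inside mitochondria, stood at 14.6, 19.1 and 14.6 CPM under the 24 h label, against 34.4, 38.9 and 36.5 CPM in controls (log2 ratio -1.18 ± 0.11 SE, edgeR adjusted p = 4.08e-08). Hadhb, a subunit of the mitochondrial trifunctional protein, was lower at 6 h, at 256, 228 and 228 CPM, against 438, 389 and 378 CPM in controls (log2 ratio -0.76 ± 0.08 SE, edgeR adjusted p = 3.09e-06). It did not go lower in the other treated groups. Hadhb stood at 262, 283 and 270 CPM at 12 h, 287, 299 and 253 CPM under the 24 h label, and 251, 301 and 287 CPM under the 200 µM label. Etfdh, which passes the electrons on, stood at 26.2, 23.8 and 28.9 CPM under the 24 h label, against 36.7, 37.8 and 39.2 CPM in controls (log2 ratio -0.53 ± 0.08 SE, edgeR adjusted p = 1.1e-05). Genes of the branches that leave the mevalonate pathway for ubiquinone and dolichol were also tested. Of 9 such genes, 7 were not called under the 24 h label, where 61% of all genes were called. At 6 h, 1 rose and 1 fell, where 9.1% of all genes rose and 8.1% fell. At 12 h, 0 were called, where 6.33% of all genes were. Coq2, of ubiquinone synthesis, stood at 34.3, 35.6 and 37.7 CPM under the 24 h label, against 46.1, 44.3 and 44.9 CPM in controls (log2 ratio -0.33 ± 0.07 SE, edgeR adjusted p = 0.000308), and Nus1, of dolichol synthesis, was higher at 6 h, at 62.4, 50.7 and 53.5 CPM at 6 h, against 43.5, 40.7 and 48.2 CPM in controls (log2 ratio 0.34 ± 0.09 SE, edgeR adjusted p = 0.0166).

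Across all 5 groups together, 26 of the 29 members differed (edgeR's quasi-likelihood test on 4 coefficients), where 66.4% of all genes did. Tm7sf2 (edgeR adjusted p = 0.671), Dhcr7 (0.1) and Scd (0.103) were the 3 that did not pass. The libraries under the 24 h and 200 µM labels enter that test as separate groups although they resemble each other.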

How the data were processed

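Total RNA of 15 Odora libraries was sequenced, and the authors deposited whole-number read counts per Entrez gene with no normalization. Per the submitters' processing notes, bcl2fastq, CASAVA 1.8, TopHat, DESeq and the rat build rn4 were used, without stated roles. The counter, annotation and strand setting were not given in the sources used here. Reads of overlapping genes and near copies therefore cannot be separated.

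Symbols came from a RefSeq table of GRCr8. It lacked 161 identifiers, which held at most 0.681% of a library's counts. The filterByExpr rule kept 10575 of 16832 identifiers. Comparisons used edgeR 4.0.16 in R 4.3.3 (quasi-likelihood F test, robust, TMM, group as the only factor, all 15 libraries), with Benjamini-Hochberg adjustment over all genes tested and a threshold of 0.05. The standard error (SE) is the log2 ratio divided by the square root of F. CPM are TMM scaled, except those of marker genes and the floor, which use library totals. The fit was tested on simulated data. The floor of 3 counts covers counting error only.

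Alternatives were DESeq2 1.42.0, limma-voom (limma 3.58.1), DESeq2 size factors, library totals, 2 other filters, only the 6 libraries compared, a replicate block, a term for libraries whose 6 heart genes (Myh6, Myh7, Actc1, Myl2, Myl3 and Mybpc3) summed to over 10 CPM, omission of the 24 h or the 200 µM label, and omission of each library in turn.

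Members, lists and tests were chosen with earlier results of these data known. Values in every library are given for members called in at least 1 comparison with control and for the 5 regulators. Up to 3 called genes with the smallest adjusted p are named from each other list, except 1 result that is not reported here. Promoter windows were to be printed for members holding TCACNCCAC. As 0 members held it, the 5 windows shown were chosen after their values were seen. Mvk and Fasn are not analysed here.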

Additional observations from a re-analysis of the deposited data

Results flagged for a closer look

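Npc1, the lysosomal cholesterol transporter, was flagged because its effects differed between times at 100 µM. It fell by 0.35 on the log2 scale at 12 h and rose by 0.64 under the 24 h label, each against control, and the log2 ratio of the 24 h label to 12 h was 0.99 (edgeR adjusted p = 5.38e-09, with 3 of 3 libraries under the 24 h label above 3 of 3 at 12 h). Counts of members whose difference from control changed between conditions, by a direct test of the difference, are listed for the same reason. Between 12 h and 6 h it was 1 member, Pmvk, where 0.974% of all genes were called. Between the 24 h label and 12 h it was 23 members, where 54.5% of all genes were called. Between the 200 µM label and 100 µM at 6 h it was also 23, where 53.6% of all genes were called. The last 2 counts rest on libraries that resemble each other in pairs across the 24 h and 200 µM labels.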

How the results depend on the processing

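Of 117 called member values, 68 kept direction and call in every alternative run, and 1766 of 1895 alternative values kept both. Members with calls that held throughout numbered 3 at 6 h, 0 at 12 h and 20 under each of the 24 h and 200 µM labels. The cause of the changes below was not tested. At 12 h the members called numbered 14, against 0 with the heart term (edgeR, with 7 members at an unadjusted p under 0.05) and 4 to 18 on leaving out 1 library, and all genes called were 669, against 50, 1165 with the replicate block and 271 to 639 on leaving out 1 library. At 6 h the members called were 8, against 4 with the heart term, 13 with the replicate block and 4 to 13 on leaving out 1 library, and all genes called were 1819, against 933 with the heart term and 1026 to 1776 on leaving out 1 library. Between 12 h and 6 h the member called was 1, against 3 in the 6 libraries compared, 2 with DESeq2, 2 with the replicate block, 0 with the heart term (edgeR, with 5 members at an unadjusted p under 0.05) and 0 to 1 on leaving out 1 library. All genes called there were 103, against 223, 200, 223, 51 and 50 to 93 in the same settings. With the heart term, all genes called were 3880 in place of 6449 under the 24 h label and 3898 in place of 6402 under the 200 µM label. Leaving out 1 library gave 23 to 25 members called under either label against control. Replicate numbers were not shown to pair the libraries, since same-numbered libraries correlated at -0.0825 to 0.572 in their deviations and in no comparison did all 3 pairs exceed 0.1.

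With library totals, log2 ratios changed sign under the 24 h label for Acly (-0.03), Dhcr7 (-0.17), Elovl6 (-0.23), Pmvk (-0.31), Scd (-0.21) and Tm7sf2 (-0.35). Of these, Pmvk, Scd and Tm7sf2 were then called lower (edgeR adjusted p = 0.00372, 0.011 and 0.00112). Under the 200 µM label the sign changed for Acly (-0.04), Dhcr7 (-0.15), Elovl6 (-0.27) and Scd (-0.25), and Scd was called lower (edgeR adjusted p = 0.00363). Against 12 h the sign changed for Ebp (-0.04) and Nsdhl (-0.03), and between doses for Acly (-0.14) and Stard4 (-0.07). With the heart term, Pmvk (-0.13) and Tm7sf2 (-0.07) changed sign under the 24 h label and Insig2 (-0.03) at 6 h. On leaving out 1 library, ratios crossed 0 for Pmvk (-0.01 to 0.11) and Tm7sf2 (-0.11 to 0.09) under the 24 h label, Scap at 12 h (-0.07 to 0.03), Insig2 at 6 h (-0.02 to 0.12) and Pmvk under the 200 µM label (-0.13 to 0.01). At the shallowest depth, 3 counts equal 0.29 CPM, under the lowest member level.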
